A study of Homo sapiens with 2 samples.

Results

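Shallow miRNA precursor stacks are the places in the human genome where few Argonaute-bound small RNA reads piled up over a miRNA hairpin. They were taken from a deposited table of read stacks by 2 conditions: the annotation of the stack had to name a human miRNA gene or the class of miRNA primary transcripts, and the stack had to hold fewer than 1000 reads. This gave 1459 stacks of the 1780 that carry such an annotation, and of 502547 stacks in all. The read count chose them, so their depth is a description of the choice, and width, entropy and edits come from the same reads and are described with no test. The shallow stacks were 82.0% of the precursor stacks but held 145335 reads, or 0.275% of the 52912796 reads in precursor stacks.

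The series sequenced small RNA from HEK293 T-Rex cells, a line from human embryonic kidney, expressing the Argonaute protein AGO2 or AGO3 with a FLAG tag. Tagged protein was pulled down on magnetic beads from an NP40 lysate, and the RNA in it was freed with proteinase K, selected by length, ligated to adapters at both ends and sequenced. Each protein is represented by 1 library; differences between the 2 have no replicate to check them, and no p-value is given. The 3′ adapter differed between the libraries, so adapter and protein cannot be told apart, and an untagged or mock pulldown was not analysed here. The stack table pools libraries that its text does not name. It holds 68649476 reads, 6.05 times the 11341300 reads of the AGO2 and AGO3 libraries together, so its stacks cannot come from the reads counted in those libraries alone, and their depth cannot be set against the counts as 1 set of reads.

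A miRNA starts as a hairpin in a longer transcript. Drosha cuts the hairpin out in the nucleus, Dicer cuts off its loop in the cytoplasm, and Argonaute keeps 1 strand of the resulting duplex, the 5p or the 3p arm, and uses bases 2 to 8 of it, the seed, to find targets. Mirtrons are hairpins that skip Drosha: they are short introns whose ends are set by splicing, so their 3p arm ends where the intron ends, at the AG of the splice acceptor.

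The sequences below are mature miRNAs from RefSeq (GRCh38.p14), 5′ to 3′, with the seed in capitals. They are the products annotated for a hairpin, not sequences read from the stacks. The first set is the 3p arm, or the only mature sequence, of the 6 hairpins whose shallow stack of at least 100 reads had no edits and of 4 whose stack had among the lowest entropies. The last 2 bases are also in capitals, and each of the 10 ends in AG.

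miR-4747-3p: aAGGCCCGggcuuuccucccAG
miR-6769a-3p: gAGCCCCUcucugcucuccAG
miR-6777-3p: uCCACUCUccuggcccccAG
miR-6780b-3p: uCCCUUGUcuccuuucccuAG
miR-6784-3p: uCUCACCCcaacucugccccAG
miR-6819-3p: aAGCCUCUguccccaccccAG
miR-1224-3p: cCCCACCUccucucuccucAG
miR-1237-3p: uCCUUCUGcuccgucccccAG
miR-943: cUGACUGUugccguccuccAG
miR-6871-3p: cAGCACCCuguggcucccacAG

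The hairpin mir-1228, listed here as a mirtron, is shown beside them because its 3p arm has another end, CC, and its stack had edits.

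miR-1228-3p: uCACACCUgccucgccccCC

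The second set is of hairpins with a near copy elsewhere in the genome: the 3p arm is shared letter for letter by both copies, and the 5p arms differ.

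miR-19b-3p, from mir-19b-1 and mir-19b-2: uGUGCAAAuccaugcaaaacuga
miR-19b-1-5p: aGUUUUGCagguuugcauccagc
miR-19b-2-5p: aGUUUUGCagguuugcauuuca
miR-92a-3p, from mir-92a-1 and mir-92a-2: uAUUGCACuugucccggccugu
miR-92a-1-5p: aGGUUGGGaucgguugcaaugcu
miR-92a-2-5p: gGGUGGGGauuuguugcauuac

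Counted from the 5′ end, the 5p arms of mir-19b-1 and mir-19b-2 have the same base at 18 of 22 positions, and those of mir-92a-1 and mir-92a-2 at 16 of 22. The 3p arms of mir-365a and mir-365b are alike at 22 of 22 positions and their 5p arms at 19 of 22.

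The third set holds mir-4804, both of whose arms have a shallow stack, and mir-320e. Each has a stack that is among the 5 members with the most edits per read.

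miR-4804-5p: uUGGACGGuaagguuaagcaa
miR-4804-3p: uGCUUAACcuugcccucgaaa
miR-320e: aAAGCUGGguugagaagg

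Of the 1459 stacks, 1423 lay over a hairpin that the table names, and these named 914 precursors. The other 36 stacks lay in a gene that bears a miRNA name but not over a named hairpin. They held 144 reads together, a median of 1 and at most 43 each, and 14 of them lay in the gene called hsa-mir-10a. Most precursors had shallow stacks alone: 844 of 914 (92.3%) had no deeper stack, and 70 had a shallow and a deeper one. Precursors with 1 shallow stack numbered 415 and those with 2 numbered 490. Another 8 had 3 and 1 had 4.

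Depth was spread over the whole range below the limit. The median was 23 reads, with quartiles of 5 and 100, and 164 stacks (11.2%) were a single read, against 73.2% of all stacks in the table. A further 347 had 2 to 9 reads, 579 had 10 to 99 and 369 had 100 or more. Those 369 held 83.3% of the reads. The stacks lay on 23 chromosomes, with 142 on chromosome 1, 137 on chromosome 19, 124 on chromosome 17 and 95 on chromosome 14.

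**Figure D1:**
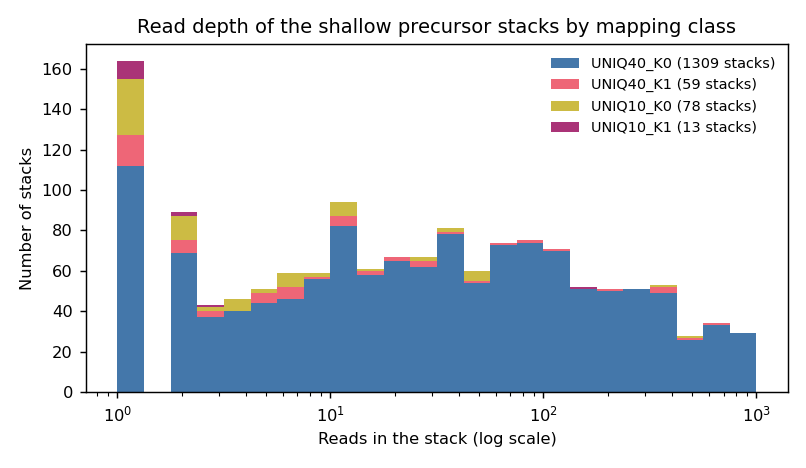
Number of shallow precursor stacks (vertical axis) by the reads in the stack (horizontal log axis), with the mapping class given by the deposited table in colour. The class UNIQ40_K0 holds 1309 of the 1459 stacks, and the other classes lie mostly below 10 reads.

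The stacks just inside the limit were those of mir-664a with 979 reads, mir-7851 with 972, mir-4473 with 971, mir-3074 with 968 and mir-3909 with 959. After them came mir-6807 with 953 reads, mir-216a with 947, mir-1256 with 913, mir-449b with 908 and mir-497 with 906. The stacks just outside it were those of mir-1284 with 1009 reads, mir-6803 with 1029, mir-5581 with 1033, mir-345 with 1042 and mir-5001 with 1058. No gap in depth separates the members from the precursor stacks above them.

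These 10 deepest members come from hosts of several kinds. The stack of mir-664a (hg19 chr1:220373922-220373952, minus strand) overlaps the small nucleolar RNA SNORA36B, which lies in RAB3GAP2. The stack of mir-7851 (chr12:42717540-42717564, minus strand) is marked as intronic in ZCRB1 and lies in an AluJb element, a short interspersed repeat. The stack of mir-3074 (chr9:97848304-97848329, minus strand) lies opposite mir-24-1, which is on the other strand. The stack of mir-497 is the smaller of 2 over its hairpin, and the deeper one has 9767 reads. mir-497 and mir-195 form 1 cluster of the miR-15/16 family, and mir-195 likewise had a shallow stack of 264 reads beside a deeper one of 10286.

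By annotation, 1184 stacks (81.2%) were labelled exon, 990 (67.9%) intron and 802 (55.0%) CDS, short for coding sequence, of some transcript. These labels are not exclusive, since 1 stack can be exonic in 1 transcript and intronic in another. The hairpin's own gene can count as an exon. The CDS label does not by itself place a stack in coding sequence. It was also on stacks labelled intron but not exon, such as the 3′ stacks of mir-6769a and mir-6819. A 5′ untranslated region was marked in 200 stacks and a 3′ untranslated region in 39. A gene on the opposite strand was marked in 308 (21.1%), and 80 lay opposite another named hairpin. Repeats were marked in 7.33% of the stacks, and 17 stacks lay in TcMar-Mariner DNA transposons, and a small nucleolar RNA in 11.

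Most stacks had the width of 1 miRNA. The median width was 24 bases, with quartiles of 23 and 27 and a range of 16 to 99, and 83.6% were at most 30 bases wide. The commonest widths were 22 bases in 239 stacks, 23 in 237 and 24 in 209. Where a pair of stacks could be joined to both mature sequences of its hairpin, the stack was a median of 2 bases wider than the mature sequence. The 321 precursor stacks above the limit had a median width of 60 bases.

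Width rose with depth among the members, from a median of 22 bases in stacks of 1 read to 23, 24 and 26 bases in stacks of 2 to 9, 10 to 99 and at least 100 reads. In stacks outside precursors of the same depths the medians were 22, 24, 26 and 27 bases. The members were thus the narrower by 1 or 2 bases in each range above 1 read. Among the 369 members of at least 100 reads, 251 were at most 30 bases wide, 64 were 31 to 59 and 54 were 60 or wider.

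**Figure D2:**
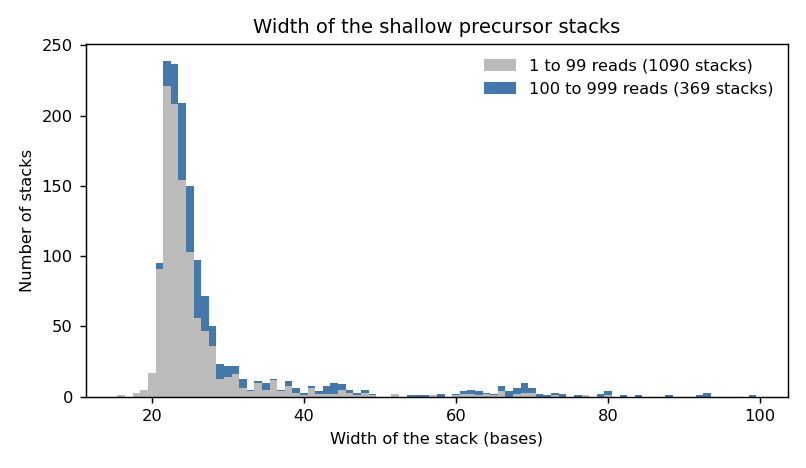
Number of shallow precursor stacks (vertical axis) by width in bases (horizontal axis), in grey for stacks of 1 to 99 reads and in blue for those of at least 100. Most stacks lie between 21 and 27 bases, with low rises near 44 and 69 bases, and 78 stacks are 60 bases or wider.

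The widest members of at least 100 reads were those of 5 hairpins. The stack of mir-4470 was 99 bases wide with 224 reads, those of mir-6807, mir-3618 and mir-6804 were 93 bases wide with 953, 551 and 173 reads, and that of mir-3913-1 was 92 bases wide with 266 reads. mir-3618 lies in the 5′ untranslated region of DGCR8, which encodes the RNA-binding partner of Drosha. The narrowest were 21 bases wide, over mir-1237 with 274 reads, mir-1224 with 523, mir-4443 with 109 and mir-6793 with 163. The stack of mir-6733, with 138 reads, was 22 bases wide. Of these 5 narrow stacks, all but that of mir-4443 carried the splice acceptor mark described further on.

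Most hairpins with shallow stacks alone were seen as 2 separate arms. Exactly 2 stacks were found over 558 precursors, in 489 of which both were shallow. The 5′ ends of the 2 stacks lay a median of 38 bases apart, with quartiles of 36 and 42. For 332 of the pairs RefSeq lists 2 mature sequences, and the distance between the stacks equalled that between these sequences in 90 pairs (27.1%) and was within 3 bases of it in 255 (76.8%). It was off by more than 10 bases in 36.

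The arms were seldom equal. In the 207 pairs of shallow stacks with at least 100 reads together, the larger stack held a median of 77.7% of the reads, with quartiles of 63.6% and 91.3%. It held at least 90% in 58 pairs and less than 60% in 38. The 3′ stack was the larger in 127 of the 207 and the 5′ stack in 79. In 219 pairs joined to their mature sequences, the arm with more reads began with U in 111 (50.7%) and the arm with fewer reads in 82 (37.4%). Within pairs, U began the larger arm alone in 62 and the smaller arm alone in 33, both arms in 49 and neither in 75. A first U is the base that Argonaute is known to hold best. G began 13 of the larger and 29 of the smaller arms.

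In another 69 precursors, 1 of the 2 stacks was shallow and the other deeper. The shallow one was the 5′ stack in 39 and the 3′ stack in 30, and it held a median of 174 reads, or 3.18% of the reads of its hairpin. mir-23a, of the miR-23/27/24 cluster, is such a hairpin, with a shallow stack of 418 reads and a deeper one of 88556. So is mir-20b, a paralogue in the miR-17~92 family, with 568 and 16135 reads. A single stack in all was found over 346 precursors, and 71 of these stacks (20.5%) were at least 60 bases wide.

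Entropy, a score of the submitters taken here as how spread the read positions and sequences in a stack are, was low. It had a median of 0.114, with quartiles of 0.0382 and 0.235, and a highest value of 1.69, and it was 0 in 184 stacks. The deeper precursor stacks had a median of 1.10. A stack of 1 read has 1 position, so the score is tied to depth: the medians were 0, 0.0434, 0.144 and 0.264 from 1 read through 2 to 9 and 10 to 99 up to at least 100 reads. In stacks outside precursors they were 0, 0.0514, 0.176 and 0.372. The members thus had the lower median in each range above 1 read. The score is not position alone: a stack of 1 read with 1 edit over mir-5698 had 0.0182. Entropy and edits per read may therefore not be separate measures.

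**Figure D3:**
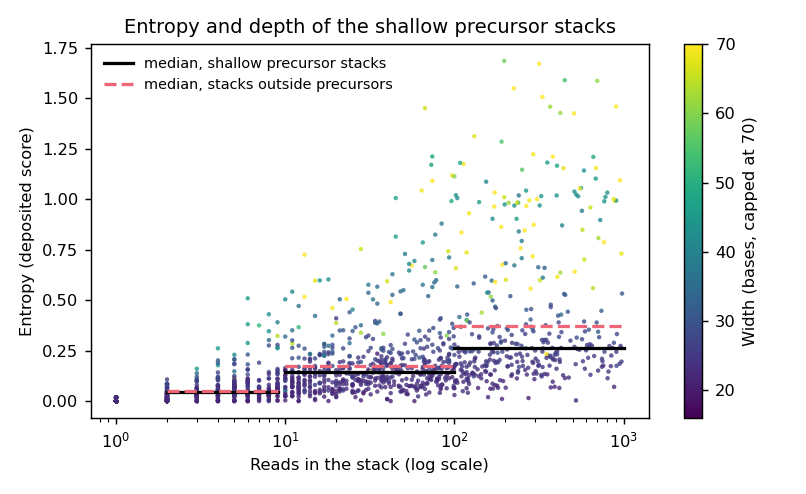
Entropy of each shallow precursor stack (vertical axis, the submitters' score) against its reads (horizontal log axis), coloured by width up to 70 bases. Black lines are the medians of the members at 2 to 9, 10 to 99 and at least 100 reads (0.0434, 0.144 and 0.264), and dashed red lines those of stacks outside precursors (0.0514, 0.176 and 0.372), and wide stacks lie highest.

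Width divided the entropies of the deeper members. Among those of at least 100 reads, the median entropy was 0.199 in the 251 stacks up to 30 bases, 0.904 in the 64 of 31 to 59 bases and 0.962 in the 54 of 60 bases or more. The highest scores were 1.69 in mir-3940, 1.67 in mir-4685, 1.59 in mir-4466 and in mir-3115 and 1.55 in mir-4470. These 5 stacks were 58, 72, 54, 61 and 99 bases wide. mir-3940 had its score in the smaller of its stacks, of 197 reads, while its 3′ stack of 623 reads was 30 bases wide with an entropy of 0.354.

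The lowest scores belonged to narrow stacks of 21 to 23 bases. They were 0.00324 in mir-1224, 0.0106 in mir-943, 0.0153 in mir-1237, 0.0196 in mir-6871 and 0.0301 in mir-4668. The 3′ stack of mir-1224 (chr3:183959257-183959277, plus strand, over VWA5B2 and EIF2B5) had 523 reads over 21 bases, which is the length of miR-1224-3p. All 5 stacks carried the splice acceptor mark.

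The submitters' table marks 197 of the 1459 stacks (13.5%) with SS3, which it does not define and which is taken here as a 3′ splice site, the acceptor end of an intron. The mark sat on the 3′ arm: in pairs of stacks it was on the 3′ stack alone in 148 and on the 5′ stack alone in 1. Among hairpins with the mark, 128 of 165 RefSeq 3p sequences (77.6%) end in AG, against 21 of 342 (6.14%) among the other members and 195 of 882 (22.1%) of all human 3p sequences in the table. The hairpins with the mark were also richer in G and C, with a median of 61.1% of the bases of their mature sequences against 50%.

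Edits are the differences from the reference that the table counts in each stack. Its fields do not define them, but in every stack of 1 read the number of edits equals the digit after K in the mapping class. The members held 19944 edits, or 0.137 per read, with a median of 0.125 per stack. The deeper precursor stacks had 0.162 per read. The stacks outside precursors below 1000 reads had 0.270 pooled but a median of 0 per stack. From 10 reads up the medians at like depth were close. They were 0.129 in members and 0.137 outside precursors at 10 to 99 reads. In stacks of at least 100 reads below the limit they were 0.140 and 0.142, with upper quartiles of 0.163 and 0.351. At 2 to 9 reads the medians were 0.111 and 0. Most members of at least 100 reads lay close together: 263 of 369 had 0.1 to 0.2 edits per read.

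Stacks at splice acceptors had few edits. Among members of at least 100 reads, the 83 with the mark had a median of 0.0577 edits per read and the 286 without it 0.149. Fewer than 0.05 edits per read were found in 38 of the 83 (45.8%, exact interval 34.8% to 57.1%) and in 4 of the 286 (1.40%, 0.382% to 3.54%). The groups overlapped, since the highest value with the mark was 0.198 and the lowest without it 0.0354. Depth and width were alike, with medians of 234 and 257.5 reads and of 28 and 26 bases. The limit of 0.05 was chosen after the values were seen.

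**Figure D4:**
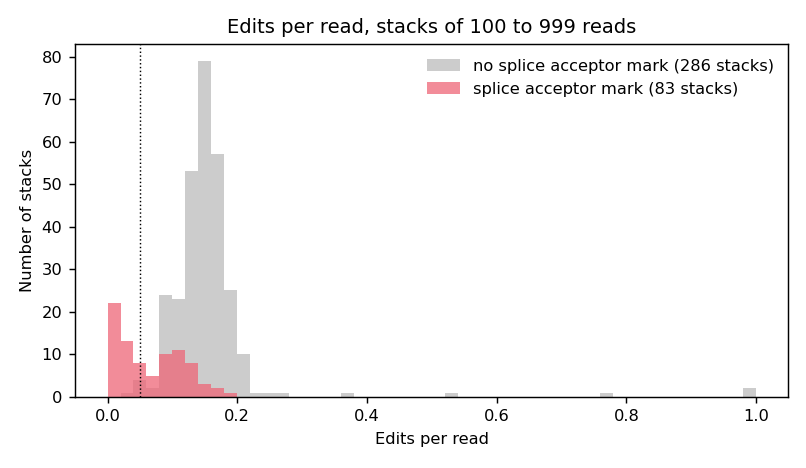
Number of members of at least 100 reads (vertical axis) by edits per read (horizontal axis), in red for the 83 with the splice acceptor mark and in grey for the 286 without it, drawn over each other. The dotted line is at 0.05, below which lie 38 marked and 4 unmarked stacks, and the unmarked stacks peak near 0.149.

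The same held within hairpins. In 67 pairs with the mark on the 3′ stack and at least 20 reads in each, the 3′ stack had fewer edits per read in 56 (83.6%, 72.5% to 91.5%), with medians of 0.0307 for the 3′ and 0.141 for the 5′ stacks. In 188 pairs with no mark, the 3′ stack had fewer in 112 (59.6%, 52.2% to 66.7%), with medians of 0.143 and 0.155. The 5′ stacks of the marked hairpins had nearly the median of the 5′ stacks of the others.

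Among 3′ stacks joined to a 3p sequence, with at least 20 reads, the last letters divided the marked stacks further. The 60 marked stacks whose 3p sequence ends in AG had a median of 0.0313 edits per read, a range of 0 to 0.209 and 39 values below 0.05. The 9 marked stacks with another end had a median of 0.121 and 1 value below 0.05. Without the mark, the 3 stacks whose sequence ends in AG had a median of 0.146 and the 82 others 0.145. Values below 0.05 were thus found mainly where the mark and the AG ending came together, while the groups with only 1 of the 2 are small.

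No edit at all was found in 6 members of at least 100 reads, each marked as a splice acceptor and in a protein-coding gene. They were the 3′ stacks of mir-6780b with 417 reads (ABCC10), mir-4747 with 328 (UHRF1, a DNA methylation factor), mir-6777 with 217 (SREBF1, a regulator of lipid synthesis), mir-6784 with 175 (PLCD3), mir-6769a with 118 (MGRN1) and mir-6819 with 100 (MYH9). The stacks were 22 bases wide, except that of mir-4747 at 24 and that of mir-6784 at 26. Their 5′ stacks had 48, 93, 53, 22, 48 and 7 reads in the same order. Those of mir-6780b, mir-4747, mir-6777, mir-6784 and mir-6769a had 0.0833, 0.140, 0.113, 0.0909 and 0.0625 edits per read, and that of mir-6819 had none in its 7 reads.

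Other low values were found in mir-5006 with 1 edit in 331 reads and in mir-1224 with 2 edits in 523. In mir-1224 the 5′ stack, of 1177 reads and so above the limit, had 0.142 edits per read, against 0.00382 in the 3′ stack. The hairpin mir-1228 was listed here as a mirtron, but its 3p arm does not end in AG. It had 0.134 edits per read in its marked 3′ stack of 485 reads and 0.145 in its 5′ stack of 413. The 4 unmarked members below 0.05 were mir-4484, mir-4783, mir-6850 and mir-151b. Splice acceptors outside precursors gave like values: 102 of 200 marked stacks with at least 100 and fewer than 1000 reads (51.0%) lay below 0.05, against 142 of 2042 unmarked (6.95%), and in deeper precursor stacks 6 of 14 against 4 of 307.

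At the other end, 4 members of at least 100 reads had 0.5 or more edits per read. The 5′ stack of mir-4804 (chr5:72174426-72174450, plus strand, in TNPO1) had 637 edits in 637 reads, while the 3′ stack of the same hairpin had 0.179 per read in 346 reads. The stack of mir-4707 (chr14:23426166-23426188, minus strand, in HAUS4) had 169 edits in 169 reads. The stack of mir-320e had 136 edits in 178 reads (0.764) and that of mir-5579 had 137 in 262 (0.523). The fifth was mir-499b with 0.363 in 102 reads, and it lies opposite mir-499a, a heart and muscle miRNA. In mir-4804 the high value was thus on 1 of its 2 arms.

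By mapping class, 1309 members (89.7%, exact interval 88.0% to 91.2%) were UNIQ40_K0, and they held 96.6% of the reads. Another 78 were UNIQ10_K0, 59 UNIQ40_K1 and 13 UNIQ10_K1. The table does not define the classes, and only the digit after K could be tied to edits. Of other stacks below 1000 reads, 57.1% were UNIQ40_K0. From 10 reads up the shares were 95.5% of members and 74.1% of other stacks.

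Edits differed between the classes. All 13 members in UNIQ10_K1, mir-4707 among them, had as many edits as reads. So did all 66289 stacks of that class, in or outside precursors, so this is a trait of the class. The 59 in UNIQ40_K1 had 0.321 per read pooled, but 0.153 without the stack of mir-4804, and UNIQ40_K0 had 0.132. Of the 4 members with 0.5 or more edits per read named before, mir-320e and mir-5579 were in UNIQ40_K0. Members in UNIQ10_K0 had 0.0961, a median of 2 reads and a median width of 22 bases.

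Lists of miRNA families and tissues show how the shallow stacks fall among known groups. The placental cluster of chromosome 19, active in trophoblast and in early embryos, gave 39 shallow stacks over 29 precursors, with 386 reads together, at most 35 in 1 stack (mir-518f) and no deeper stack. The imprinted DLK1-DIO3 cluster of chromosome 14 gave 59 stacks over 41 precursors, with 1007 reads, led by mir-376c with 154, and again no deeper stack. The pluripotency miRNAs gave 9 stacks and 46 reads, the most being 10 in mir-367. These 3 groups were broad in members and thin in reads.

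Shared seeds tie some of them together. The seed AAGUGCU was shared by 9 precursors with 63 reads in all, members of the miR-302, miR-372, miR-373 and miR-520 families, shown here by 4 of them.

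miR-302a-3p: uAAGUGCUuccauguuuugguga
miR-372-3p: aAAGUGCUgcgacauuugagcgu
miR-373-3p: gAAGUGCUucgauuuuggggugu
miR-520a-3p: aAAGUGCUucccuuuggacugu

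Blood cell miRNAs gave 11 shallow stacks with 1413 reads, and 1 of their precursors had a deeper stack. Of the shallow reads, mir-146a had 405, mir-144 had 354 and mir-451a had 333. mir-451a is the hairpin known to be cut by AGO2 in place of Dicer. Its stack was 38 bases wide, and the count tables hold 3 AGO2 and 1 AGO3 counts for it. Epithelial and liver miRNAs gave 16 shallow stacks with 1337 reads, while 6 of the 13 precursors listed had a deeper stack. The shallow stacks were led by mir-200a with 341, mir-203a with 289 and mir-200b with 173. Muscle miRNAs gave 8 shallow stacks with 531 reads, of which mir-499a had 439, and 1 precursor with a deeper stack. Neuronal miRNAs gave 2 shallow stacks, mir-153-1 with 116 reads and mir-7-3 with 104, while 9 of the 23 precursors listed had a deeper stack.

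Some well-known families had few shallow stacks. The let-7 family had 2, miR-17~92 with its paralogues 3, miR-15/16 2, miR-181 1 and miR-23/27/24 1, and none was found for miR-30 or the miR-103 family. Deeper stacks covered 8 let-7 precursors, 13 of miR-17~92, 8 of miR-15/16, 6 of miR-181, 6 of miR-23/27/24, 4 of miR-30 and 1 of the miR-103 family. Mirtrons gave 11 shallow stacks over 7 precursors with 1899 reads, and 4 mirtrons had a deeper stack. Their shallow stacks had 0.0816 edits per read pooled but a median of 0.115 per stack. The stack of mir-1224 alone held 523 of the reads, with 2 edits. Hairpins that derive from small nucleolar RNAs gave 10 over 6 precursors with 1345 reads, most of them in mir-664a. The miR-548 family, which comes from Mariner transposon copies, gave 32 stacks over 25 precursors with 5041 reads, led by mir-548l with 840, mir-548v with 608 and mir-548j with 534. Entries numbered 3000 or more, which are the later additions to the miRNA registry, gave 936 of the 1459 stacks over 571 precursors, with 87743 reads.

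The separate AGO2 and AGO3 count tables give 1 count per hairpin for both arms together. The AGO2 library had 6674064 reads with 3485257 counted on precursors, and the AGO3 library 4667236 with 3055417. Of the 914 precursors of the members, 585 have an entry there and 329 have none. Of the 329, 207 have numbers above the highest in those tables, 5708. Whether a missing entry stands for no count or for a hairpin not looked for under that name is not known here. The 585 took 5.30% of all counts in AGO2 and 5.56% in AGO3. Those of them with shallow stacks only took 3.20% in AGO2 and 2.45% in AGO3, from 111569 and 74739 counts. Of these counts, mir-92a-2 held 37370 and 32079, let-7a-2 held 21290 and 11001, and mir-365b held 13296 and 5223. These hairpins share a mature sequence with another hairpin, so the shares are not those of rare miRNAs alone. Since the libraries are bulk, fewer cells with a miRNA and less of it per cell cannot be told apart.

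Of 124 precursors that had 100 counts or more in the libraries together, 39 (31.5%, exact interval 23.4% to 40.4%) differed by at least 2-fold in their share of counts, against a background of 24.6% of all 411 precursors with that many counts. In AGO3, 21 (16.9%) were at least 2-fold higher against a background of 15.8%, and 18 (14.5%) at least 2-fold lower against 8.76%. The interval of the members' share apart includes the background. So does that of their share higher in AGO3, 10.8% to 24.7%. That of their share lower in AGO3, 8.84% to 22.0%, begins just above its background. The 411 include the 124 members' precursors. The 124 had fewer counts, with a median of 304.5 against 1322 in all 411, so their ratios carry more counting error. A ratio whose own exact interval lay wholly beyond 2-fold was found in 21 of the 124 (16.9%) and in 73 of the 411 (17.8%). The median log2 ratio of AGO3 over AGO2 was 0.0021 in the members and 0.08 in all 411. Precursors with shallow stacks only had 14 higher and 14 lower of 75, and those with a deeper stack too had 7 higher and 4 lower of 49. The former had fewer counts, with a median of 183 against 788.

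**Figure D5:**
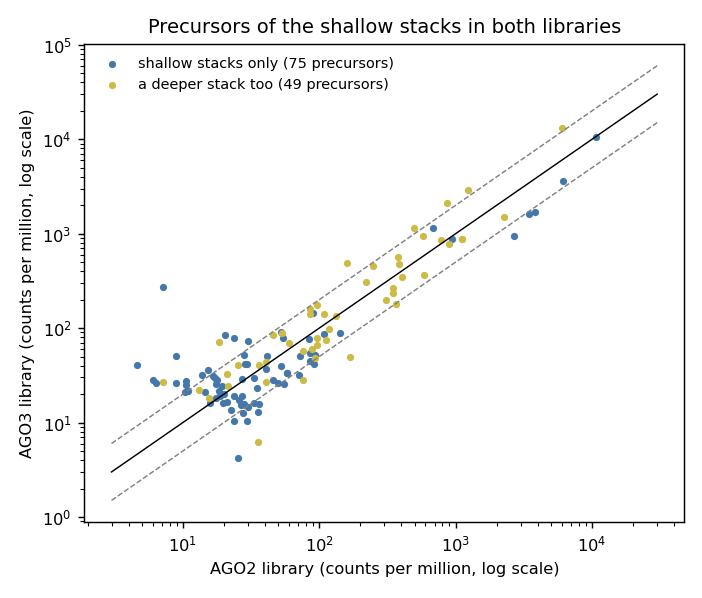
Precursor counts scaled to library size (CPM) in the AGO3 library (vertical log axis) against the AGO2 library (horizontal log axis) for the 124 precursors of shallow stacks with at least 100 counts, in blue for 75 with shallow stacks only and in yellow for 49 with a deeper stack too. The solid line marks equal shares and the dashed lines 2-fold differences, beyond which lie 39 precursors, and mir-642b stands highest above the line.

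The highest ratio was that of mir-642b, with 25 AGO2 and 834 AGO3 counts and a log2 ratio of 5.22 (exact interval 4.68 to 5.89, counting error only). Its stacks held 27 and 14 reads. mir-642b lies opposite mir-642a, which had 64 and 992 counts, a log2 ratio of 4.13 and stacks of 3042 and 1311 reads. The 3p sequences of the pair have the same base at 21 of 22 positions.

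miR-642a-3p: aGACACAUuuggagagggaacc
miR-642b-3p: aGACACAUuuggagagggaccc

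Whether the counts used strand is not given in the sources here, so reads of mir-642a and mir-642b cannot be told apart in the counts. After it came mir-4717 with 16 and 125 counts (log2 ratio 3.11), mir-659 with 31 and 153 (2.47), mir-4733 with 21 and 86 (2.20) and mir-1908 with 71 and 259 (2.05). The stack of mir-659 was 66 bases wide with 586 reads, and mir-1908, in the desaturase gene FADS1, had stacks of 329 and 218 reads. All 5 were higher in AGO3 beyond counting error.

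The lowest ratio was that of mir-548h-5, with 89 AGO2 and 13 AGO3 counts, a log2 ratio of -2.54 (-3.55 to -1.74) and a stack of 2 reads. Then came mir-2114 with 123 and 19 counts (-2.48), mir-215 with 590 and 151 (-1.77), mir-19b-2 with 9359 and 2912 (-1.49) and mir-144 with 103 and 32 (-1.48). Other numbered copies of mir-548h were nearer to equal shares. The log2 ratio was -0.45 in mir-548h-1, from 36 AGO2 and 23 AGO3 counts. In mir-548h-2, mir-548h-3 and mir-548h-4 it was 0.04, -0.93 and -0.90. Of the miR-548 family, 12 precursors had at least 100 counts. At least 2-fold lower in AGO3 were 6 of them, against the background of 8.76%, and 0 were higher, against 15.8%, and their median log2 ratio was -0.68. Of 45 entries numbered 3000 or more, 9 (20%) were higher against the same 15.8% and 2 (4.44%) lower against 8.76%, with a median of 0.29 beside 0.08 in all 411. These sets share an element or a date of entry, and their members are not independent samples.

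Some hairpins had shallow stacks and large counts. mir-92a-2 had 37370 AGO2 and 32079 AGO3 counts but a stack of 198 reads. mir-19b-2 had 9359 and 2912 counts and a stack of 450 reads, mir-365b had 13296 and 5223 counts and 415 reads, and let-7f-1 had 12066 and 4945 counts and 433 reads. let-7a-2 had 21290 and 11001 counts and a stack of 2 reads. Each has another hairpin with the same mature sequence, shown above for miR-19b and miR-92a.

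For 4 of these hairpins the copy had the deep stack. A stack of 2462278 reads lay over mir-19b-1 and mir-92a-1, 1 of 227920 over let-7f-2 and 1 of 42301 over mir-365a. For let-7a-2 this did not hold, since 0 of the stacks analysed here carried the name let-7a-1 or let-7a-3, which had 31406 and 20371 AGO2 counts. In the count tables the copies were much closer: mir-19b-1 had 19769 AGO2 counts against 9359 for mir-19b-2, and mir-92a-1 had 46777 against 37370 for mir-92a-2. In mir-365 the order turned, with 13296 for mir-365b and 6068 for mir-365a. The copies thus differed far more in stack reads than in counts. Log2 ratios of AGO3 over AGO2 also differed between copies. They were -0.76 in let-7a-2 against 0.40 in let-7a-1 and 0.87 in let-7a-3, and -1.10 in let-7f-1 against -0.33 in let-7f-2. In mir-19b-1 and mir-19b-2 they were -1.96 and -1.49, and in mir-92a-1 and mir-92a-2 0.36 and -0.03. For mir-365a and mir-365b they were -0.58 and -1.16. The sources used here do not give how either table treated reads with several matches, and its part in these differences was not tested.

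The width of these stacks varied. The stack of mir-19b-2 was 24 bases wide with an entropy of 0.114 and that of mir-365b 28 bases with 0.318, while those of mir-92a-2 and let-7f-1 were 44 and 40 bases wide with entropies of 0.975 and 0.871. mir-940, mir-23a and mir-320a also passed 10000 counts, but each had its own deeper stack, of 29411, 88556 and 1028310 reads, beside a shallow one of 525, 418 and 1. For the 75 precursors with shallow stacks only and at least 100 counts, the stacks held a median of 1.84 reads per count, and 26 had more counts than stack reads. These ratios are low beside the table as a whole, which held 8.09 precursor stack reads per count, with a median of 6.32 over 326 precursors of at least 100 counts. A stack under the limit caps that ratio, so it is partly fixed by the choice of members. For mir-1286, in RTN4R, stacks of 759 and 194 reads stood beside 311 AGO2 and 446 AGO3 counts, with a log2 ratio of 0.71 (0.50 to 0.92). It was chosen after its values were seen.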

How the data were processed

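The deposited stack table gives a count of reads for each stack, a score called entropy, and text fields with edits, mapping class and annotation. Per the file headers it was written by a program called parclip; the sources used here do not give which libraries it pools. The deposited count tables give whole counts per precursor and library. Bowtie2 2.1.0 and hg19 are named, with no role, in the submitters' processing notes. For the miRBase release, strand use and treatment of reads with several matches, the sources used here give nothing.

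Members were found from the annotation and the read limit of 1000. Edits per read are edits over reads. Stacks over 1 hairpin were ordered 5′ to 3′, and a pair was joined to RefSeq arms when the distance of its 5′ ends was within 3 bases. RefSeq held mature sequences for 839 of 914 precursors. The log2 ratio of AGO3 over AGO2 used shares of precursor counts, 52.2% of the AGO2 and 65.5% of the AGO3 reads, with a pseudocount of 0.5. Intervals are exact (Clopper-Pearson) at 95% and cover counting error only, since without molecular identifiers several reads can stem from 1 molecule. A count of 0 allows 3 counts, which is 8.61e-05% of those in AGO2 and 9.82e-05% in AGO3. No cell marker could be checked in small RNA tables.

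Named were the 10 deepest members, the 5 stacks above the limit, 5 at each end of width and entropy and 5 with the most edits per read (from 100 reads), precursors with at least 10000 counts, 5 at each end of the ratios (from 100 counts) and up to 3 members per list. Members and lists were chosen with earlier results of these data known, and the splice acceptor groups, copies, mir-451a and mir-1286 after their values were seen. Alternatives covered other limits, annotations, minimums, scalings and pseudocounts. The ratio was tested on simulated data. Computation ran on pandas 2.3.3, scipy 1.17.1, numpy 2.4.6 and matplotlib 3.10.9 under Python 3.11.15.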

Additional observations from a re-analysis of the deposited data

How the results depend on the processing

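The number of shallow stacks was 1383 at a limit of 500 reads and 1515 at 2000. With at least 10 reads per stack, the median width was 25 bases, the median entropy 0.182 and the share in UNIQ40_K0 95.5%, and by reads that share was 96.6%. Edits per read were 0.135 as the median of stacks of at least 10 reads, 0.133 without the stack with the most edits and 0.134 at a limit of 500. Taking the hairpin annotation alone, chosen after seeing the data, left these values within their intervals. The share of precursors at least 2-fold apart ran from 28.6% without numbered copies to 37.3% with shallow stacks only. Scaling by the median of ratios lowered every log2 ratio, a shift of -0.19. It changed the sign of 9 of 124 ratios and gave 19 higher and 23 lower in place of 21 and 18. Under these alternatives the share over all precursors was not computed, so the values cannot be read against the background given before. At minimums of 20 to 200 reads, also chosen after seeing the data, 40.4% to 47.4% of stacks with the splice acceptor mark lay below 0.05 edits per read, and 0.565% to 2.29% of the others. No paired analysis was possible because each protein has 1 library, and for the same reason no library could be left out. Depth limits the 164 stacks of 1 read most, where entropy was at most 0.0182 and edits per read are whole.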

Other observations

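Some shallow stacks lay opposite another hairpin, and whether the counts separate the strands is not known here. mir-499b had stacks of 102 and 45 reads and 318 AGO2 and 127 AGO3 counts, and mir-499a, on the other strand, had stacks of 2825 and 439 reads and 324 and 148 counts. The counts of the pair were nearly the same while the stacks differed. mir-3074 had 3292 AGO2 and 2715 AGO3 counts and 1 stack of 968 reads, and mir-24-1, opposite it, had 3496 and 5302 counts and a stack of 15954 reads. mir-451b, opposite mir-451a, had 2 stacks of 1 read.

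The seed AAAGUAA was shared by 4 precursors with 1139 stack reads, among them mir-548j and mir-548b, and the seed GGGGGAG by 4 others with 1086. Of the 1313 mature sequences of the members' hairpins, 1154 seeds were different.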
